A study of Mus with 8 samples.

Results

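The Slc25 genes encode the mitochondrial carriers, a family of membrane proteins most of which sit in the inner mitochondrial membrane. Rows of the expression table were taken as members where the gene symbol of the platform annotation began with Slc25a and a number. This gave 45 carriers among 23185 rows with a gene symbol. The values are microarray levels in log2 units from mouse liver taken 48 h after partial hepatectomy, the removal of part of the liver, after which the remainder grows back. Livers labelled LKB1 KO (4 arrays) were set against livers labelled Ctrl (4 arrays), and the series title describes the contrast as absence against presence of LKB1 expression. No source used here gives the strain, sex or age of the mice or the way in which LKB1 was removed. The labels do not say whether replicates came from separate animals, so the p-values rest on a spread between arrays that may be technical.

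The inner mitochondrial membrane is closed to most charged metabolites, and each carrier lets a small set of them across, often by exchanging one for another. The carriers thereby join enzymes that lie on opposite sides of the membrane. In hepatocytes these links include citrate export for fatty acid synthesis, ornithine exchange for the urea cycle, glutamate and aspartate traffic for nitrogen disposal and the malate-aspartate shuttle, and acylcarnitine entry for fatty acid oxidation. LKB1 is the product of Stk11, a kinase acting upstream of AMPK and its relatives, which take part in the control of lipid synthesis and gluconeogenesis.

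The labels were checked first on Stk11, whose level was 3.98, 3.97, 4.84 and 4.22 log2 units in LKB1 KO 1 to 4 and 6.69, 6.68, 6.46 and 6.76 in Ctrl 1 to 4. No array went against its label. Hepatocyte markers averaged 11.93 to 12.05 log2 units in LKB1 KO arrays and 12.04 to 12.12 in Ctrl arrays over 8 measured genes, of which 0 passed in limma and 2 had an unadjusted p under 0.05. Array medians lay between 3.75 and 3.96, LKB1 KO 2 had the lowest mean correlation with its own group (0.974) and Ctrl 4 the lowest among the Ctrl arrays (0.976). Skeletal muscle genes, listed after Slc25a4 had been seen, averaged 7.27 in Ctrl 4 and 3.13 to 3.49 in the other arrays. Markers of endothelial cells and macrophages had lower means in LKB1 KO in 8 of 8 measured genes each (endothelial array means 6.13 to 6.40 in LKB1 KO and 6.55 to 6.93 in Ctrl, macrophage array means 6.06 to 6.48 in LKB1 KO and 6.35 to 7.32 in Ctrl), with 2 endothelial genes and 1 macrophage gene past the test. Over all genes 1.49% passed as lower. In whole liver, fewer cells of a type and less RNA per cell cannot be told apart, and the part of endothelial cells and macrophages in the carrier results was not tested.

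Of the 45 carriers, 3 rose and 1 fell in the LKB1 KO livers, and 41 did not pass the test. The citrate carrier gene Slc25a1 fell. The kidney mitochondrial carrier gene Slc25a30, the glutamate carrier gene Slc25a22 and the ornithine carrier gene Slc25a15 rose. A call means an adjusted p under 0.05 in a limma fit over all 23185 genes, with LKB1 KO minus Ctrl as the difference and Benjamini-Hochberg adjustment. The 4 calls are 8.89% of the carriers, beside 1.98% of all genes called in either direction, 0.487% called higher (113 genes) and 1.49% called lower (345 genes). With quantile normalization 198 genes were called higher and 340 lower. An unadjusted p under 0.05 was reached by 14 of the 45 carriers and by 3114 of all 23185 genes. Counts at that p in the lists of this report are to be read beside the count over all genes. Among genes whose mean level exceeded 3.73 log2 units, a gauge of background described further on, 3.76% were called, and 4 of the 36 carriers above it were (11.1%).

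Carriers differed in both directions, and a shift of the whole family was not tested. The median difference of the 45 carriers was 0.09 log2 units, beside 0.02 over all genes, and 26 carriers had a higher and 19 a lower mean in LKB1 KO. The carriers' median absolute difference was 0.18, beside 0.15 over all genes. In 12 carriers the LKB1 KO arrays did not overlap the Ctrl arrays (26.7%, beside 8.84% of all genes), 6 of them higher and 6 lower in LKB1 KO. Over all genes, 774 rows without overlap were higher and 1275 lower. Above the gauge the share was 33.3% of 36 carriers, beside 14.0% of genes.

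**Figure D1:**
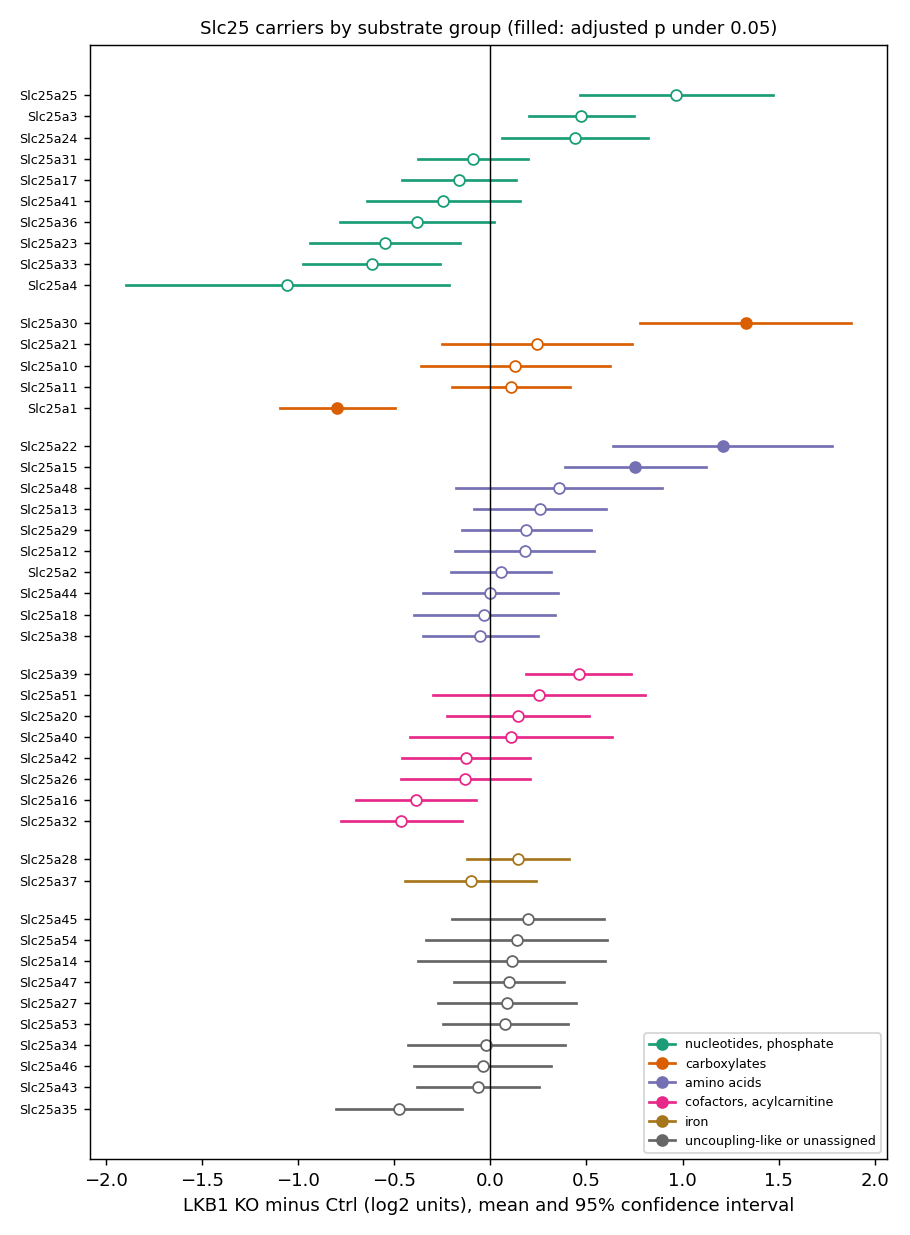
Difference between LKB1 KO and Ctrl (log2 units, horizontal axis) for each of the 45 Slc25 carriers, grouped by substrate. Points are means of 4 against 4 arrays, lines are 95% confidence intervals, and filled points are the 4 carriers with an adjusted p under 0.05 (Slc25a30, Slc25a22, Slc25a15 and Slc25a1).

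Slc25a1 and Slc25a30, both listed here with the carboxylate carriers, changed in opposite directions. Slc25a1 (Entrez Gene 13358) exports citrate from the matrix in exchange for malate and so supplies acetyl units for fatty acid and cholesterol synthesis in the cytosol. Its level was 8.01, 7.87, 8.20 and 8.35 log2 units in LKB1 KO 1 to 4 and 8.88, 8.97, 8.81 and 8.95 in Ctrl 1 to 4. All LKB1 KO arrays lay below all Ctrl arrays, which stayed close together. The means were 8.11 ± 0.21 in LKB1 KO and 8.90 ± 0.07 in Ctrl (SD, n = 4 each), a 1.74-fold lower level (difference -0.80, SE 0.13, 95% confidence interval -1.09 to -0.50, limma adjusted p = 0.0154).

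Slc25a30 (Entrez Gene 67554), first known from kidney and related to the uncoupling proteins, encodes a carrier whose human form was shown to carry sulfate, thiosulfate and dicarboxylates. Its level was 6.77, 5.92, 6.66 and 7.33 log2 units in LKB1 KO 1 to 4 and 5.55, 5.27, 5.23 and 5.31 in Ctrl 1 to 4. The LKB1 KO arrays were spread more widely than the Ctrl arrays, LKB1 KO 2 being the lowest of them, but the groups did not overlap. The means were 6.67 ± 0.58 in LKB1 KO and 5.34 ± 0.14 in Ctrl (SD, n = 4 each), a 2.51-fold higher level (difference 1.33, SE 0.25, interval 0.78 to 1.88, limma adjusted p = 0.0228).

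The other 3 carriers of this list had groups that overlapped. Counts by substrate group rest on the listing, in which Slc25a14 stands with the uncoupling-like members and Slc25a30 does not. The dicarboxylate carrier gene Slc25a10, which exchanges malate or succinate for phosphate, differed by 0.13 (interval -0.36 to 0.62). The 2-oxoglutarate carrier gene Slc25a11, the malate arm of the malate-aspartate shuttle, differed by 0.11 (interval -0.20 to 0.42). Slc25a21, a carrier of oxodicarboxylates from lysine and tryptophan breakdown, differed by 0.24 (interval -0.25 to 0.74).

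Amino acid carriers held the other calls, with 2 of 10 measured members higher and 0 lower (0.487% of all genes were called higher and 1.49% lower). Slc25a22 (Entrez Gene 68267) brings glutamate into the matrix together with a proton. Its level was 9.58, 9.12, 9.54 and 9.57 log2 units in LKB1 KO 1 to 4 and 7.51, 8.03, 8.67 and 8.77 in Ctrl 1 to 4. The LKB1 KO arrays stood close together and above every Ctrl array, whereas the Ctrl arrays were spread over more than 1 log2 unit. The means were 9.45 ± 0.22 in LKB1 KO and 8.24 ± 0.59 in Ctrl (SD, n = 4 each), a 2.31-fold higher level (difference 1.21, SE 0.26, interval 0.64 to 1.78, limma adjusted p = 0.0413).

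Slc25a15 (Entrez Gene 18408) encodes the ornithine carrier that links the matrix and cytosolic steps of the urea cycle by exchanging ornithine for citrulline. Its level was 10.18, 10.08, 10.16 and 9.998 log2 units in LKB1 KO 1 to 4 and 9.09, 9.04, 9.64 and 9.62 in Ctrl 1 to 4. The LKB1 KO arrays were again close together and above all Ctrl arrays, and Ctrl 1 and Ctrl 2 lay below Ctrl 3 and Ctrl 4, as they did for Slc25a22. The means were 10.10 ± 0.08 in LKB1 KO and 9.35 ± 0.33 in Ctrl (SD, n = 4 each), a 1.69-fold higher level (difference 0.76, SE 0.17, interval 0.39 to 1.12, limma adjusted p = 0.0466).

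The 8 remaining amino acid carriers did not pass, and their groups overlapped. The aspartate-glutamate carrier genes Slc25a13 (citrin, the main form in liver) and Slc25a12 (aralar) differed by 0.26 (interval -0.09 to 0.60) and 0.18 (interval -0.18 to 0.54). Slc25a48, for which choline transport has been described, differed by 0.36 (interval -0.18 to 0.89) with Ctrl arrays from 4.12 to 5.50 log2 units, and by 0.12 without Ctrl 4 and 0.58 without Ctrl 3. The basic amino acid carrier gene Slc25a29 differed by 0.19 and the glycine carrier gene Slc25a38, which serves heme synthesis, by -0.05. The branched-chain amino acid carrier gene Slc25a44 had means of 6.43 log2 units in both groups. Slc25a2 and Slc25a18, alternative carriers of ornithine and glutamate, lay at or below the background gauge in all 8 arrays.

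These 4 calls are sensitive to single arrays. Without LKB1 KO 1 or Ctrl 2, 0 carriers passed, without LKB1 KO 3 or Ctrl 1 only Slc25a1 passed, and without LKB1 KO 2 or LKB1 KO 4 only Slc25a1 and Slc25a30 did, while 7 carriers passed without Ctrl 4. The adjusted p of Slc25a1 was 0.0551 without LKB1 KO 1 and 0.0565 without Ctrl 2, and that of Slc25a30 reached 0.0752 without Ctrl 2 (0.0751 without LKB1 KO 1, 0.0671 without LKB1 KO 3, 0.0550 without Ctrl 3 and 0.0510 without Ctrl 1). Slc25a22 and Slc25a15 kept their calls without Ctrl 3 or Ctrl 4 and lost them without any other array (adjusted p up to 0.127 and 0.130). Differences stayed between -0.88 and -0.72 for Slc25a1, 1.11 and 1.58 for Slc25a30, 0.96 and 1.38 for Slc25a22 and 0.65 and 0.85 for Slc25a15. Centring each array on its median ended the calls of Slc25a22 and Slc25a15 (adjusted p = 0.0661 and 0.0762), and a fit without moderation of variances ended all 4 (0.0603 for Slc25a1 to 0.209 for Slc25a22).

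Among the 10 measured carriers of nucleotides and phosphate, 0 passed in limma and 6 had an unadjusted p under 0.05 (3114 of all 23185 genes had). The means of 3 were higher and of 7 lower in LKB1 KO. Slc25a25 came closest. It encodes a calcium-regulated carrier that exchanges ATP-Mg for phosphate and so sets the adenine nucleotide content of the matrix. Its level was 7.47, 7.21, 7.39 and 7.07 log2 units in LKB1 KO 1 to 4 and 5.83, 5.93, 6.74 and 6.76 in Ctrl 1 to 4. The groups did not overlap, and Ctrl 1 and Ctrl 2 were again the low Ctrl arrays. The difference was 0.97 (SE 0.23, interval 0.47 to 1.47, limma adjusted p = 0.0608), and the gene passed without Ctrl 3 (0.0437), without Ctrl 4 (0.0360), with quantile normalization (0.0465), with array weights (0.0335), with a trended and robust prior (0.0434) and with the dimmest genes left out (0.0442). It did not pass in the other 11 of 17 alternatives, with adjusted p values up to 0.233, among them 0.175 without Ctrl 2, 0.164 without LKB1 KO 1 and 0.108 with a replicate block.

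Slc25a23, a second ATP-Mg carrier gene, stood on the other side. Its level was 7.93, 7.71, 7.80 and 7.94 log2 units in LKB1 KO 1 to 4 and 8.56, 8.56, 8.60 and 7.86 in Ctrl 1 to 4. Ctrl 4 alone fell among the LKB1 KO values. The difference was -0.55 (SE 0.18, limma adjusted p = 0.176), and without Ctrl 4 it was -0.73 with an adjusted p of 0.0195. The third, Slc25a24, differed by 0.44 with overlapping groups (adjusted p = 0.288), and the fourth, Slc25a41, lay below the gauge in all arrays.

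The phosphate carrier gene Slc25a3, which delivers phosphate for ATP synthesis, had levels of 10.46, 10.16, 10.35 and 10.43 log2 units in LKB1 KO 1 to 4 and 9.79, 9.78, 9.95 and 9.98 in Ctrl 1 to 4. The groups did not overlap, at a difference of 0.47 (SE 0.12, limma adjusted p = 0.0900). Slc25a33, a pyrimidine nucleotide carrier gene, had levels of 4.13, 3.96, 4.12 and 4.15 log2 units in LKB1 KO 1 to 4 and 5.10, 4.76, 4.62 and 4.35 in Ctrl 1 to 4. Every LKB1 KO array was lower than every Ctrl array, with a difference of -0.62 (SE 0.16, limma adjusted p = 0.0915), and all LKB1 KO values were close to the gauge. Without Ctrl 4 it passed (adjusted p = 0.0390). Its relative Slc25a36 differed by -0.38 and the peroxisomal carrier gene Slc25a17 by -0.16, both with overlapping groups.

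The ADP/ATP carrier gene Slc25a4, the form that prevails in heart and skeletal muscle, had a mean difference that shrank without Ctrl 4. Its level was 5.37, 4.66, 4.89 and 5.27 log2 units in LKB1 KO 1 to 4 and 5.85, 5.59, 5.52 and 7.45 in Ctrl 1 to 4. The groups did not overlap, and Ctrl 4 stood far above every other array. The difference was -1.06 (SE 0.38, limma adjusted p = 0.234) and -0.61 without Ctrl 4 (adjusted p = 0.188). In the same array the skeletal muscle actin gene Acta1 read 9.77 log2 units, against 3.43 to 3.75 in the other 7 arrays, and the fast troponin gene Tnnt3 read 8.90, against 3.37 to 3.90. All 10 muscle genes were highest in Ctrl 4, and their part in the level of Slc25a4 was not tested. Probes of the ADP/ATP carriers may also pick up each other's transcripts. The liver form of the ADP/ATP carrier had no row among the 45 carriers and so was not analysed, and the germ cell form Slc25a31 lay below the gauge in all arrays.

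**Figure D2:**
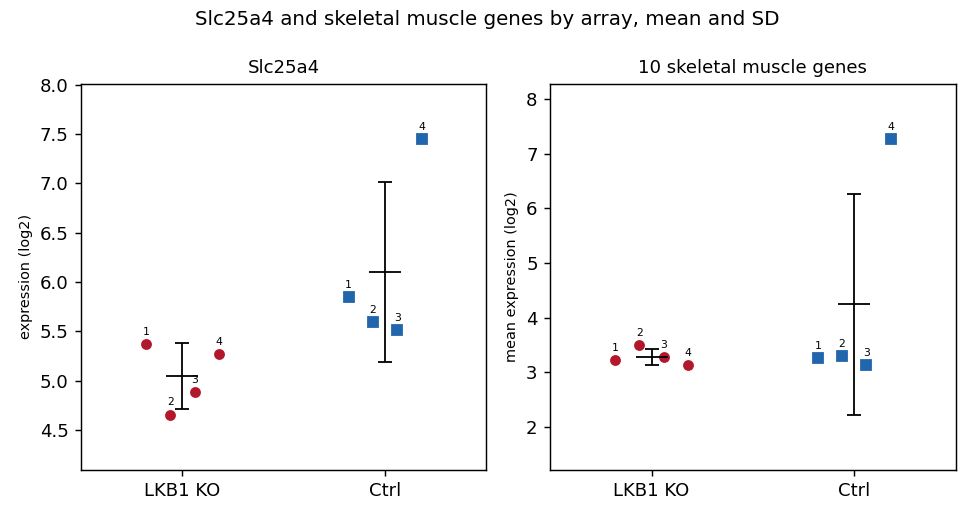
Level of Slc25a4 (left, log2 units) and mean level of 10 skeletal muscle genes (right, log2 units) in each array of LKB1 KO and Ctrl. Points are arrays numbered by replicate, bars are means with SD; Ctrl 4 is the highest array in both panels, at 7.45 and 7.27.

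Cofactor and acylcarnitine carriers gave 0 calls among 8 measured members, of which 3 had an unadjusted p under 0.05. The glutathione carrier gene Slc25a39 had levels of 9.94, 9.78, 10.08 and 9.92 log2 units in LKB1 KO 1 to 4 and 9.36, 9.42, 9.63 and 9.46 in Ctrl 1 to 4. All LKB1 KO arrays were higher, by 0.46 on average (SE 0.12, limma adjusted p = 0.0991). Slc25a32, a carrier of folate or FAD, had levels of 5.43, 5.03, 5.40 and 5.58 log2 units in LKB1 KO 1 to 4 and 5.85, 5.84, 5.92 and 5.69 in Ctrl 1 to 4. All LKB1 KO arrays were lower, with a difference of -0.46 (SE 0.14, limma adjusted p = 0.155).

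Slc25a16, linked to coenzyme A transport, differed by -0.39 without overlap (adjusted p = 0.243). The carnitine-acylcarnitine carrier gene Slc25a20, which admits fatty acids for oxidation, differed by 0.14 (interval -0.22 to 0.51). The coenzyme A carrier gene Slc25a42 and the S-adenosylmethionine carrier gene Slc25a26 both differed by -0.13, and the NAD carrier gene Slc25a51 by 0.25 (interval -0.30 to 0.81). Slc25a40, a relative of Slc25a39, differed by 0.11 and crossed the gauge.

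Neither mitoferrin, the importers of iron for heme and iron-sulfur clusters, passed. Slc25a28 differed by 0.14 (interval -0.12 to 0.41) and Slc25a37, the form that prevails in red cell precursors, by -0.10 (interval -0.44 to 0.24). Erythroid markers averaged 4.5142 to 5.0804 log2 units in LKB1 KO arrays and 5.0001 to 5.2053 in Ctrl arrays. Of 8 measured, 4 had a lower and 4 a higher mean in LKB1 KO, and 1, Alas2, passed the test, as lower.

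Of the 10 uncoupling-like members and members without a substrate named here, 0 passed and 1 had an unadjusted p under 0.05. Slc25a35 had levels of 3.83, 3.84, 3.84 and 4.11 log2 units in LKB1 KO 1 to 4 and 4.23, 4.60, 4.12 and 4.56 in Ctrl 1 to 4. LKB1 KO 4 and Ctrl 3 all but met, and the difference was -0.47 (SE 0.15, limma adjusted p = 0.166) at levels close to the gauge. Slc25a47, an inner membrane carrier known for its liver expression, differed by 0.10 (interval -0.19 to 0.39), and Slc25a46, an outer membrane protein of mitochondrial dynamics, by -0.04 (interval -0.40 to 0.32). Slc25a45 differed by 0.20, Slc25a14 by 0.11, Slc25a27 by 0.09 and Slc25a34 by -0.02, and Slc25a43, Slc25a53 and Slc25a54 lay below the gauge in all arrays.

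**Figure D3:**
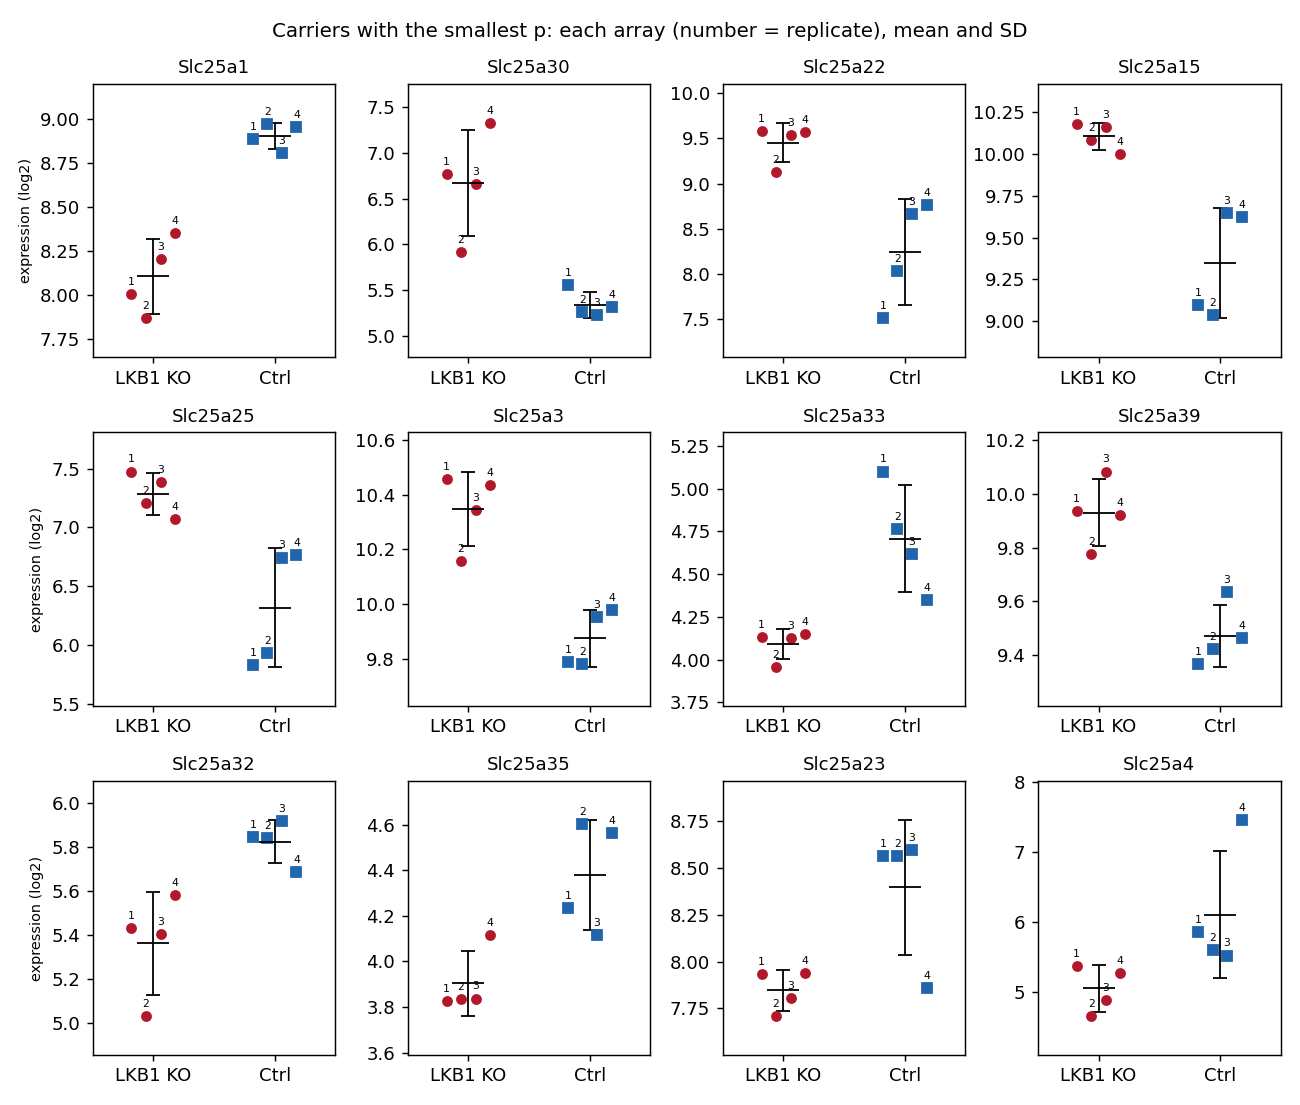
Level (log2 units, vertical axis, own scale in each panel) of the 12 carriers with the smallest p in every array of LKB1 KO and Ctrl. Points are arrays numbered by replicate, bars are means with SD; the groups overlap in Slc25a23 alone among these 12, through Ctrl 4.

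The background gauge was the 95th percentile of the mean levels of 1354 rows for olfactory and vomeronasal receptors, 3.73 log2 units. By it, 32 carriers lay above background in all 8 arrays, 7 lay at or below it in all of them and 6 crossed it. The 7 were Slc25a2, Slc25a18, Slc25a31, Slc25a41, Slc25a43, Slc25a53 and Slc25a54, whose differences lay between -0.24 and 0.14. Differences of such dim probes may be understated on this scale. The SE of a carrier's difference ran from 0.12 to 0.38 with a median of 0.16 log2 units, and the 95% interval of 17 of the 45 lay within 0.5 log2 units of 0.

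Carriers of the same substrate were compared within each array, which asks whether they changed unequally. Only the change of their difference between the groups is read here, since levels of different probes are not on 1 scale. Of 9 pairs measured, 3 had groups that did not overlap. The difference of Slc25a25 and Slc25a23 was -0.46, -0.50, -0.42 and -0.87 log2 units in LKB1 KO 1 to 4 and -2.73, -2.63, -1.85 and -1.10 in Ctrl 1 to 4. It stood 1.52 higher in LKB1 KO (exact permutation p = 0.0286, two-sided, the smallest that 4 against 4 arrays can give, and 0.0858 adjusted over the 9 pairs). The same p values were reached by Slc25a22 over Slc25a18, at 1.24 higher in LKB1 KO, and by Slc25a15 over Slc25a2, at 0.70 higher. In both the second member lay below the gauge, so these restate the rises of Slc25a22 and Slc25a15. The pair of Slc25a25 and Slc25a23 combines their own differences given above (0.97 and -0.55) and is no separate evidence.

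Slc25a24 over Slc25a23 stood 0.99 higher with overlap (exact p = 0.0571, adjusted p = 0.128). The other 5 pairs did not separate. Slc25a13 over Slc25a12 differed by 0.08 between the groups (exact p = 0.686), Slc25a37 over Slc25a28 by -0.25 (0.286), Slc25a33 over Slc25a36 by -0.24 (0.514), Slc25a39 over Slc25a40 by 0.35 (0.257) and Slc25a25 over Slc25a24 by 0.53 (0.229), all two-sided. After adjustment 0 of the 9 pairs passed 0.05, and 3 had an unadjusted p under it. With 0.0286 as the smallest exact p, an adjusted p under 0.05 would need most of the 9 pairs to reach it. The adjusted count therefore cannot decide whether a single pair changed unequally. Pairs among Slc25a23, Slc25a24 and Slc25a25 share members and are not separate tests.

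**Figure D4:**
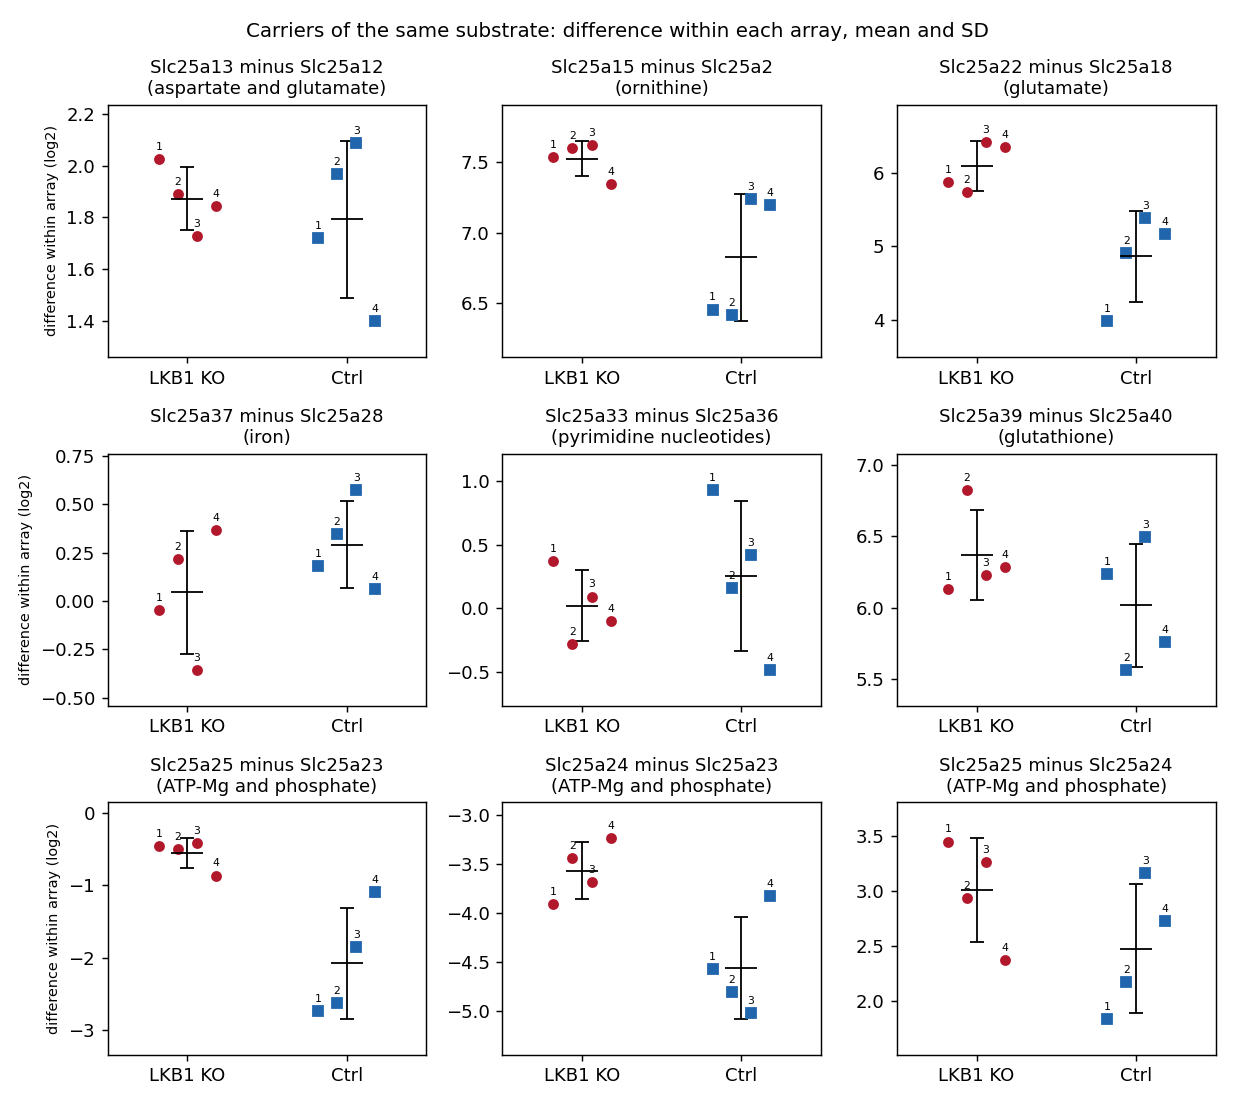
Difference within each array (log2 units, vertical axis, own scale in each panel) of 9 pairs of carriers that share a substrate, for LKB1 KO and Ctrl. Points are arrays numbered by replicate, bars are means with SD; the groups do not overlap for Slc25a15 minus Slc25a2, Slc25a22 minus Slc25a18 and Slc25a25 minus Slc25a23.

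Enzymes that make or use the carriers' substrates and other mitochondrial transport proteins were read from the same fit. Of 78 such genes, 3 rose and 0 fell (3.85% called, beside 1.98% of all genes and 3.76% of genes above the gauge, and 4 of the 78 lay at or below it in all arrays), with a median difference of 0.01. Got1, the cytosolic aspartate aminotransferase of the malate-aspartate shuttle, had levels of 10.99, 10.52, 10.89 and 10.85 log2 units in LKB1 KO 1 to 4 and 9.52, 9.37, 9.95 and 9.95 in Ctrl 1 to 4. The groups were well apart, with a 2.17-fold higher level in LKB1 KO (difference 1.12, SE 0.17, limma adjusted p = 0.00908). Mdh2, the matrix malate dehydrogenase, rose by 0.72 (SE 0.14, adjusted p = 0.0312), and its cytosolic counterpart Mdh1 differed by 0.44 (adjusted p = 0.0992). Both lie, like Got1, in the shuttle that Slc25a11, Slc25a12 and Slc25a13 serve, carriers that did not pass. Of the 6 measured genes that make or use aspartate and glutamate, Got1 alone passed. The means of 3 were higher and of 3 lower in LKB1 KO. Got2 differed by 0.15 (limma adjusted p = 0.685), and Glud1 by -0.21 without overlap (0.446).

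Crat, which exchanges acyl groups between coenzyme A and carnitine, rose by 0.88 (SE 0.15, adjusted p = 0.0167). It alone passed among 8 measured genes of the carnitine shuttle and acyl-CoA dehydrogenases, of which 6 had a higher and 2 a lower mean. Acadl differed by 0.58 with overlap (limma adjusted p = 0.124), Cpt2 by 0.20 (0.562) and Cpt1a by 0.12 (0.801). Among 8 genes of the urea cycle and ornithine, 0 passed in limma and 2 had an unadjusted p under 0.05. They were the ornithine aminotransferase gene Oat (1.08, SE 0.24, adjusted p = 0.0535), with LKB1 KO arrays between 11.68 and 11.88 and Ctrl arrays between 10.10 and 11.46, and the argininosuccinate lyase gene Asl (0.64, adjusted p = 0.0666). Of the 8 genes around citrate export, Mdh2 alone passed and 4 had an unadjusted p under 0.05. The means of 5 were higher and of 3 lower in LKB1 KO. In the lists of heme and iron-sulfur synthesis (11 measured) and of cofactor synthesis or use (16 measured) 0 passed, with 1 and 6 at an unadjusted p under 0.05. Their smallest p values belonged to the heme synthesis genes Alas1 (0.43, adjusted p = 0.361) and Ppox (-0.36, 0.414), the folate enzyme gene Mthfd1l (0.58, 0.106) and the glutathione reductase gene Gsr (0.49, 0.159). The rise of Mdh2 lost its call when any of LKB1 KO 1, 3 or 4 or Ctrl 1 or 2 was left out (adjusted p up to 0.0970), and so did that of Crat (up to 0.0597), while Got1 kept its call without any single array (up to 0.0377).

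Of the 21 other mitochondrial transport genes measured, 0 passed in limma, 5 had an unadjusted p under 0.05, and the median difference was 0.05. The outer membrane channel gene Vdac1 (0.58, SE 0.14, adjusted p = 0.0721) and Mtch2, an outer membrane relative of the carriers (0.46, SE 0.14, adjusted p = 0.141), came first, both without overlap. Among 9 regulators of mitochondrial genes, the coactivator gene Ppargc1a rose (1.34, SE 0.17, adjusted p = 0.00401) and the fatty acid receptor gene Ppara fell (-1.24, SE 0.19, adjusted p = 0.00895). The other 7 did not pass, and 1.98% of all genes were called.

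**Figure D5:**
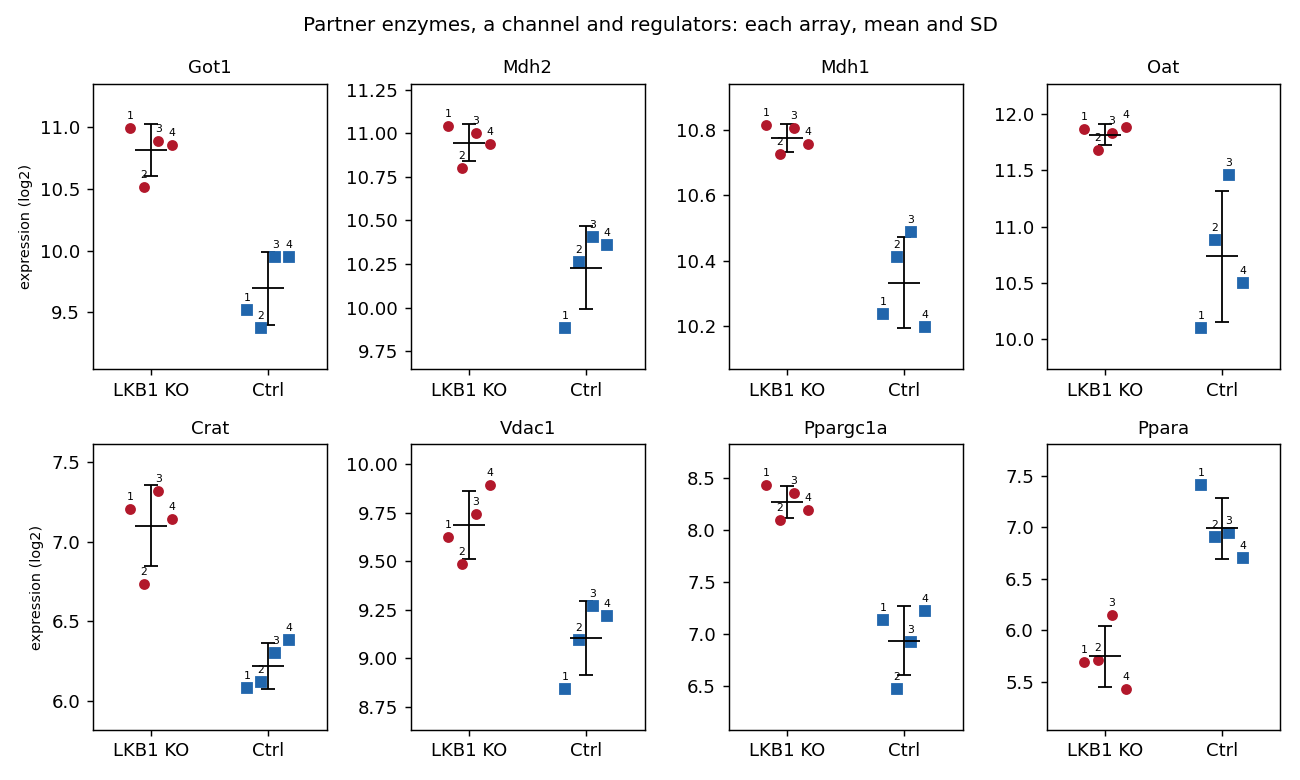
Level (log2 units, vertical axis, own scale in each panel) of 6 partner or transport genes and 2 regulators in every array of LKB1 KO and Ctrl. Points are arrays numbered by replicate, bars are means with SD; in all 8 genes the groups do not overlap, Ppara being lower and the others higher in LKB1 KO.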

How the data were processed

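The authors deposited log2 expression values, 1 for each row on each array. Per the submitters' processing notes they used RMA and the Partek software, and no source used here states versions or a genome build. Per the labels' protocols, RNA was amplified with a Nugen Ovation kit and labelled with biotin. Of 25206 rows, 23185 had 1 gene symbol, 0 several and 2021 none. All 45 carriers had the same symbol in the RefSeq gene table.

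Each gene was fitted with limma 3.58.1 in R 4.3.3 (lmFit, eBayes, group as the only term, no filter on level), and p-values were adjusted over 23185 genes. Exact tests used scipy 1.17.1. The number of arrays limits the precision. On simulated data for this comparison (20 runs, 200 of 23185 genes changed) the fit recovered 6.72% of changes of 0.5 log2 units, 82.8% of those of 1 and 99.5% of those of 2. The simulated noise was normal and independent for each gene and array, with no outlying arrays, so recovery in the real arrays may be lower.

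The carriers, gene lists and tests were chosen with earlier results of these data known. Values of every array were given for calls and, in order of p, up to 12 carriers; of other lists, calls or, where fewer than 2, the 2 smallest p. The muscle list was added after values had been seen. Lists of stellate cell, cholangiocyte, lymphocyte and neutrophil markers were also read: 0 of their 8, 5, 7 and 6 measured genes passed in limma, with 3, 0, 1 and 3 at an unadjusted p under 0.05. In the same order, 6, 3, 2 and 5 of these genes had a lower mean in LKB1 KO. Alternatives were a replicate block, single arrays left out, LKB1 KO 2 and Ctrl 4 left out together, quantile normalization, median centring, the dimmest genes left out, other variance models, array weights and all rows.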

Additional observations from a re-analysis of the deposited data

Results flagged for a closer look

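Among 122 groups of 4 arrays checked, 7 held an array far from the other 3, where chance alone would mark about 1 in 20. Of these, 6 were among the 90 groups of the carriers. In LKB1 KO 2, Slc25a22 was low at 9.12 log2 units (the others 9.54 to 9.58), Slc25a33 low at 3.96 (4.12 to 4.15), Slc25a13 low at 8.18 (8.54 to 8.61) and the folate enzyme gene Mthfd1l high at 4.59 (4.03 to 4.08). In Ctrl 4, Slc25a23 was low at 7.86 (8.56 to 8.60) and Slc25a43, which lay below the background gauge, high at 3.33 (2.85 to 2.93). In LKB1 KO 4, Slc25a35 was high at 4.11 (3.83 to 3.84).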

How the results depend on the processing

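Over 17 alternatives the 45 carriers gave 759 values. Of these, 683 kept direction and side of the threshold, 29 lost a call, 15 gained one and 32 changed sign, and the cause was not tested. Most of the 683 belong to the 41 carriers that had no call to lose. All 29 lost calls were among the 4 called carriers. Those kept their calls in 13 (Slc25a1), 11 (Slc25a30), 8 (Slc25a22) and 7 (Slc25a15) of 17 alternatives. With single arrays left out, the count of carriers past the threshold ran from 0 to 7 (4 with all arrays), that of all genes from 213 to 491 (458), that of the 78 partner and transport genes from 1 to 5 (3), and that of pairs without overlap from 3 to 4 (3); the carriers' median difference stayed between 0.03 and 0.09. Quantile normalization, a trended and robust prior and array weights each gave 7 carriers (Slc25a3, Slc25a25 and Slc25a39 added), with 7, 7 and 6 partner genes, and array weights gave 721 genes in all. Quantile normalization gave 36.8% of all calls higher in LKB1 KO, array weights 35.2% and no moderation 13.4%, against 24.7% as deposited. Median centring gave 2 carriers. Without moderation 0 carriers, 0 partner genes and 97 genes passed. Without both LKB1 KO 2 and Ctrl 4, 4 carriers passed, Slc25a23 among them and Slc25a15 (adjusted p = 0.0574) not.

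With the replicate block 1 carrier (Slc25a30) and 268 genes passed. Slc25a1, Slc25a22 and Slc25a15 lost their calls in that limma fit (adjusted p = 0.0537, 0.0536 and 0.0928). The numbers are not said to pair samples. The correlation of same-numbered deviations was -0.04, -0.11, 0.18 and -0.02, and 1 of 4 LKB1 KO arrays matched its own number best. Whether same-numbered arrays shared an animal, litter or day cannot be told from these values.

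Signs changed only in carriers with adjusted p above 0.7. With single arrays left out these ran from -0.15 to 0.047 for Slc25a18, -0.16 to 0.087 for Slc25a34, -0.12 to 0.020 for Slc25a38, -0.0021 to 0.31 for Slc25a40, -0.11 to 0.046 for Slc25a43, -0.093 to 0.11 for Slc25a44, -0.12 to 0.092 for Slc25a46, -0.021 to 0.16 for Slc25a53, -0.036 to 0.30 for Slc25a54, -0.034 to 0.29 for Slc25a14 and -0.011 to 0.19 for Slc25a27. Without both LKB1 KO 2 and Ctrl 4, the differences were 0.048 for Slc25a26, -0.062 for Slc25a54, -0.092 for Slc25a53, 0.077 for Slc25a43, 0.0092 for Slc25a46, 0.032 for Slc25a18 and 0.027 for Slc25a34. Slc25a46 read 0.013 with quantile normalization and 0.025 with array weights, Slc25a54 read -0.0090 with array weights, and Slc25a44 read -0.036 with median centring.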
